A study of Homo sapiens with 7 samples.

Results

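Aminoacyl-tRNA synthetases are the enzymes that join each amino acid to its transfer RNA. The 36 genes described here are those of the deposited HepG2 table whose symbol stood on a list of 20 cytosolic and 16 mitochondrial synthetases. All 36 were found, each as 1 coding transcript, among 24721 gene symbols, of which 19537 were coding. The table maps N6-methyladenosine (m6A), a methyl mark on adenosines inside messenger RNA, in untreated cells labelled HepG2, a line derived from a human liver carcinoma. Poly(A) RNA cut to fragments of about 100 nt was precipitated with an anti-m6A antibody in 4 libraries (IP), and 3 further libraries were input RNA with no antibody. All 7 came from the same cell line with no treatment, and the table gives 1 set of values for them together, with no column for a single library.

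For each transcript the table gives an expression quantile, which is its rank by expression from 0 to 1 and not an abundance, and a list of m6A peaks. Each peak has a position in nt from the 5' end, an exon, a segment of the transcript and the authors' score, whose scale is not stated and which was never under 2.00. The depth of the libraries is unknown and there is no replicate error. No test was therefore made, and Wilson intervals (95%) on shares of genes cover counting error alone, since genes are not replicates. The label of the cells was checked against 18 liver markers. Of these, 10 stood at the lowest quantile of the table, 0.314, which 8139 transcripts share. ALB, AFP, TTR, SERPINA1 and APOB were among them, and the highest were CEBPA at 0.843 and FGB at 0.619. Of 5 markers of ovarian or Müllerian epithelium, MSLN stood at 0.968 and MUC16 at 0.667, with PAX8 at 0.496, EMX2 at 0.374 and WT1 at 0.333. The values of the liver markers therefore go against the label. The part of this in the results below was not tested, and the cells are called by their label only.

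Cells charge tRNAs in the cytosol and separately in the mitochondrion, where a small set of messenger RNAs of its own is translated. Most mitochondrial enzymes come from nuclear genes of their own, whose symbols end in 2, while GARS and KARS serve both compartments. In animals, several cytosolic enzymes are bound together in the multi-tRNA synthetase complex. m6A in messenger RNA is known to gather near stop codons and in long exons, in a sequence context called RRACH, spelled A or G, again A or G, then the methylated A, then C and last A, C or T. An antibody against m6A also binds a related methylated adenosine next to the cap of many transcripts, and the table does not tell these marks apart.

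Most synthetase transcripts carried a peak. Of the 36 genes, 28 had at least 1 (77.8%, interval 61.9 to 88.3%), against 35.6% of all coding genes and 46.4% of coding genes above the lowest quantile. The synthetases were strongly expressed, with quantiles from 0.613 to 0.982 and a median of 0.889, against a median of 0.595 for coding genes. When each synthetase was set beside the coding genes of its own 0.05-wide expression bin, the share with a peak in those bins averaged 67.9%, which lies inside the interval of the synthetases. The share by compartment was alike, with 16 of 20 cytosolic genes (80%, interval 58.4 to 91.9%, bins of like expression 69.2%) and 12 of 16 mitochondrial genes (75.0%, interval 50.5 to 89.8%, bins of like expression 66.2%). With peaks scoring at least 3 alone, 23 of the 36 genes had one (63.9%), against 24.8% of coding genes. No share in bins of like expression is given at that threshold, so this gap is not adjusted for expression.

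**Figure D1:**
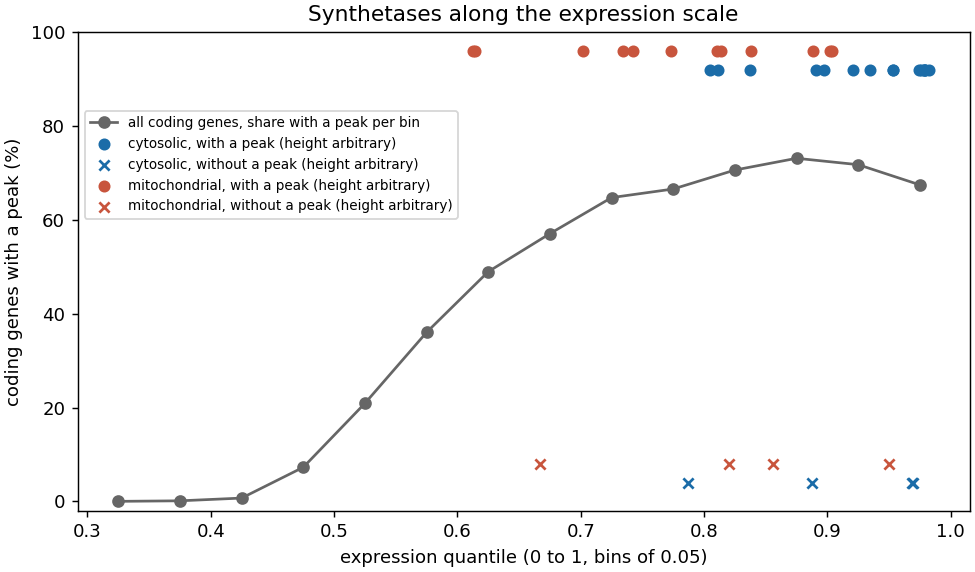
Share of coding genes with a peak (y axis, %) in bins of the expression quantile (x axis, width 0.05, grey line), with the synthetases marked at their own quantile. Dots near the top are the 28 genes with a peak and crosses near the bottom the 8 without (their height is arbitrary), and all of them lie between 0.613 and 0.982, where the grey line is between 49.0% and 73.1%.

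The 28 genes held 41 peaks, a mean of 1.46 per gene with a peak against 1.79 over coding genes with a peak. There were 18 genes with 1 peak, 7 with 2 and 3 with 3, namely YARS, AARS2 and PARS2. The top score of a gene ran from 2.06 in NARS to 6.45 in LARS2, with a median of 3.83 against 3.57 over 6957 coding genes with a peak. By segment, 14 of the 41 peaks lay around the stop codon (34.1%, against 27.6% of all peaks in coding transcripts), 7 in the 3' UTR (17.1% against 20.5%) and 7 in the coding sequence (17.1% against 36.6%). A further 8 lay at the transcript start, under 200 nt from the 5' end (19.5% against 12.5%), and 5 elsewhere in the 5' UTR (12.2% against 2.78%). The synthetases thus had fewer of their peaks in the coding sequence and more of them at the 5' end than the table as a whole, as shares with no test. These shares of peaks are not adjusted for expression. Counted by gene, 13 of the 28 with a peak had one at the 5' end (46.4%, interval 29.5 to 64.2%). In bins of like expression that share averaged 34.2%, which lies inside the interval.

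Peaks at the 5' end were mostly those of cytosolic genes. Of the 16 cytosolic genes with a peak, 12 had one at the transcript start or in the 5' UTR (75.0%, interval 50.5 to 89.8%). VARS2 was the single mitochondrial gene with such a peak, 1 of 12 (8.33%, interval 1.49 to 35.4%). Over all coding genes with a peak the share was 26.5%. It rose with expression, from 10.5% at quantiles of 0.6 to 0.65 to 49.6% above 0.95, and cytosolic synthetases stood higher on that scale, with a median quantile of 0.953 against 0.812. In bins of like expression the shares averaged 41.8% for the cytosolic and 24.2% for the mitochondrial genes. Within quantiles of 0.787 to 0.950, the range that both compartments cover, 6 of 7 cytosolic genes with a peak had one at the 5' end and 1 of 6 mitochondrial genes did. That range was chosen after the values were seen. The lead of the cytosolic genes rests in part on low scores: with peaks scoring at least 3 alone, 6 of 13 cytosolic genes (46.2%) and 1 of 10 mitochondrial genes (10.0%) had a 5' peak. At that threshold the share was 14.2% over coding genes, and 26.9% and 13.3% in bins of like expression for the cytosolic and mitochondrial genes. Both lie inside the intervals of the synthetases, 23.2 to 70.9% and 1.79 to 40.4%. At the other end of the transcript the shares stood in the opposite order, but their intervals overlap. A peak around the stop codon or in the 3' UTR was listed for 8 of 16 cytosolic genes (50%, interval 28.0 to 72.0%, bins of like expression 65.0%). It was listed for 8 of 12 mitochondrial genes (66.7%, interval 39.1 to 86.2%, bins of like expression 66.3%). Each interval holds its share in bins of like expression. Over all coding genes with a peak the share with such a peak was 63.6%.

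**Figure D2:**
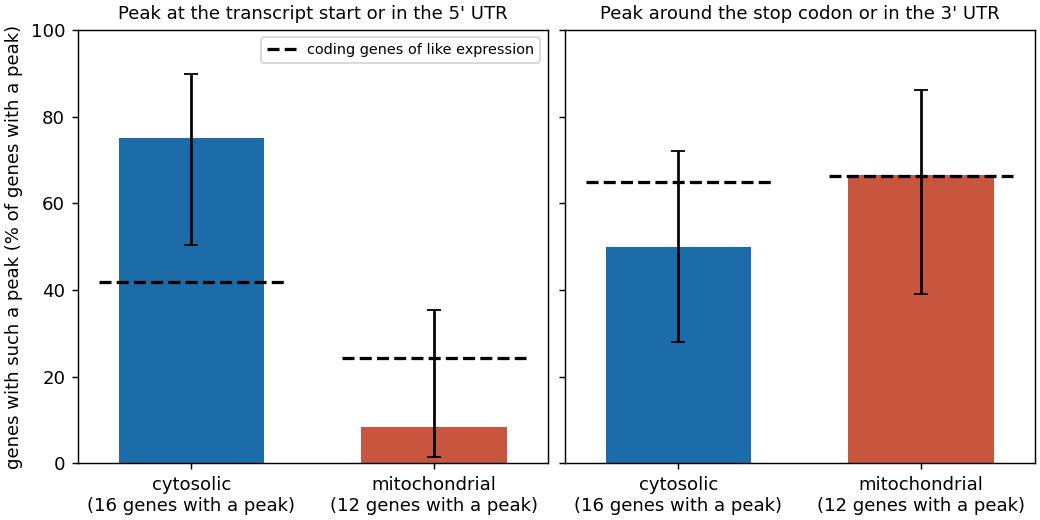
Share of genes (y axis, % of genes with a peak) that have a peak at the transcript start or in the 5' UTR (left) and around the stop codon or in the 3' UTR (right), for the 16 cytosolic and 12 mitochondrial genes with a peak. Bars are shares with Wilson 95% intervals and dashed lines the coding genes of like expression; at the 5' end the cytosolic bar, 75.0%, is above its line, 41.8%, and the mitochondrial bar, 8.33%, below its line, 24.2%.

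**Figure D3:**
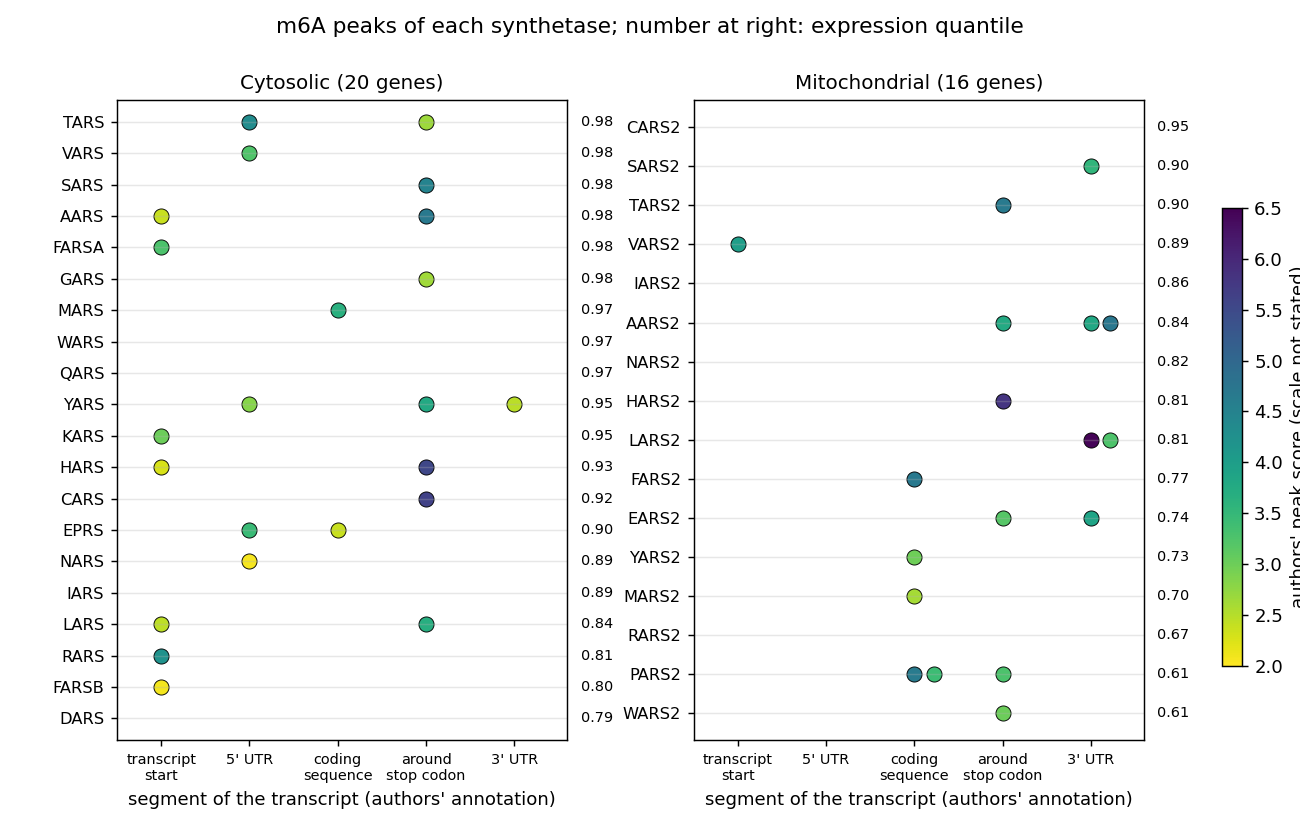
Each m6A peak of the synthetases by gene (rows, ordered by expression quantile, printed at the right) and by segment of the transcript (columns), coloured by the authors' score; a further peak in the same segment is drawn beside the first. Of the 13 dots in the left columns 12 are in the cytosolic panel, and the darkest are those of LARS2, HARS2, CARS and HARS at the 3' side.

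The sites beneath the strongest peaks that could be located are shown next, as sequence context. Peaks were located on GENCODE transcripts through the length of their exon for 35 of the 41 peaks, in 24 genes. The segment derived there equalled the authors' for all 35. At the transcript start this holds by construction, since that segment was set from the listed position. It therefore does not check where the start peaks were placed. For the 10 highest-scoring located peaks with GGACT, or else RRACH, within 50 nt, the nearest such motif is in capitals, written as DNA from 5' to 3' with 12 bases on either side.
LARS2: ggaagccatcagAGACActgctggtggga
HARS2: agaagaccctgaGGACTcctgggctagtg
CARS: tgagggggcacaGGACTgactttttaaac
HARS: cgtttcagcggaAGACCtgaagagtggtc
AARS: cagcagtaactgGAACAcacttgggagca
TARS2: cccagaacttcaGAACTgtgtggaggcac
PARS2: caccaaccggtgGGACTtgatgggcaaag
SARS: tagctgagagggGAACAgtgccatgtacc
EARS2: ctcaggccccaaGGACTcagagcagcaaa
AARS2: ccatgagtgttcGGACAggctctgcgtgc
Peaks that could not be located are not shown, though some scored above the printed peaks of EARS2 (3.87) and AARS2 (3.80). These were a further AARS2 peak in the 3' UTR (4.72) and those of FARS2 in the coding sequence (4.68) and TARS in the 5' UTR (4.32). RARS (4.22) and VARS2 (3.99), both at the transcript start, were also left out. All printed stretches lay in the last exon. The motif was in the 3' UTR in all but PARS2, where it was in the coding sequence, and the stretch printed for CARS opens with the stop codon. In GRCh38 they are, in LARS2, chr3:45547821-45547849 (plus strand, exon 22), in HARS2 chr5:140698705-140698733 (plus, exon 13), in CARS chr11:3001088-3001116 (minus, exon 23) and in HARS chr5:140674136-140674164 (minus, exon 13). Those of AARS and TARS2 are chr16:70252586-70252614 (minus, exon 21) and chr1:150507153-150507181 (plus, exon 18). For PARS2 and SARS the places are chr1:54758744-54758772 (minus, exon 2) and chr1:109238004-109238032 (plus, exon 11), and for EARS2 and AARS2 chr16:23523595-23523623 (minus, exon 9) and chr6:44299820-44299848 (minus, exon 22). The motif's A lay 2 nt from the listed position in AARS, 5 in HARS2 and EARS2, 6 in CARS and AARS2, 9 in PARS2, 10 in LARS2, 12 in SARS and TARS2 and 23 in HARS. In CARS it lay 12 nt past the end of the stop codon, in TARS2 103, in HARS 107, in AARS 121, in SARS 130 and in HARS2 167.

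Motifs near the peaks followed the pattern of the whole table. RRACH lay within 50 nt of 31 of the 35 located synthetase peaks (88.6%, interval 74.0 to 95.5%), against 89.4% of 8998 located peaks of coding transcripts. Windows 300 nt away on the synthetase transcripts held it in 43 of 52 cases (82.7%), so that RRACH by itself separated peaks from other positions little. The pentamer GGACT, which is one form of RRACH, separated them more. It lay near 12 of the 35 peaks (34.3%, interval 20.8 to 50.8%) and in 5 of the 52 windows (9.62%), against 28.1% and 10.2% over the table. The windows were not kept clear of other peaks, so a window can hold the motif of a neighbouring peak, as in YARS. Outside the 5' end, 24 of 25 peaks had RRACH (96.0%), and MARS, whose nearest RRACH lay 74 nt upstream, was the exception. Windows 300 nt from those peaks held it in 32 of 40 cases (80%). Over the table it was near 93.8% of such peaks and in 75.2% of their windows. At the transcript start and in the 5' UTR 7 of 10 peaks had RRACH (70%), against 66.6% of 1458 such peaks in the table. Windows 300 nt from these peaks held RRACH in 11 of 12 cases (91.7%), and in 78.5% over the table, so at the 5' end the windows had it more often than the peaks as a share. Windows had to fit in the transcript, so those of the synthetases lay mostly downstream, in the coding sequence. They therefore do not compare peaks with other positions of the same segment. The 3 peaks at the 5' end without RRACH within 50 nt were LARS, NARS and YARS, at distances of 70, 66 and 56 nt.

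**Figure D4:**
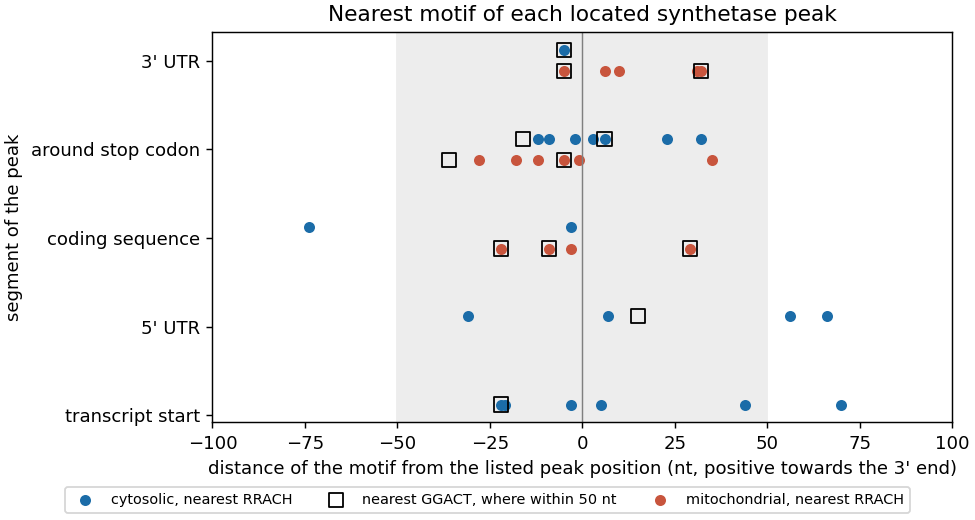
Distance (x axis, nt) from the listed position of each of the 35 located peaks to the A of the nearest RRACH (dots) and, where within 50 nt, of the nearest GGACT (squares), by segment (y axis) and compartment (colour). Of the dots, 31 fall in the shaded band of 50 nt on either side, and the 4 outside it are cytosolic, in MARS, LARS, NARS and YARS.

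The multi-tRNA synthetase complex holds 8 of the cytosolic enzymes listed, and 5 of their genes had a peak (62.5%, interval 30.6 to 86.3%, against 69.6% in bins of like expression). Of the other 12 cytosolic genes 11 did (91.7%, interval 64.6 to 98.5%, against 68.9%). The intervals overlap, and each holds its share in bins of like expression. EPRS, a fused enzyme that charges both glutamate and proline tRNAs (quantile 0.897), had a 5' UTR peak at position 246 with a score of 3.46 and a coding sequence peak at 2673 in exon 18, a 360-nt exon, with a score of 2.38. LARS, the leucine enzyme, which also takes part in sensing leucine (0.838), had a peak at the transcript start of 2.45 and one around the stop codon of 3.67. MARS, the methionine enzyme (0.974), had 1 peak of 3.64 in exon 1, placed 79 nt past the A of the start codon and counted as coding sequence. KARS, the lysine enzyme (0.953), and RARS, the arginine enzyme (0.812), had 1 peak each at the transcript start, scoring 3.01 and 4.22. Of the 5 genes with a peak, LARS was thus the single one with a peak around the stop codon or in the 3' UTR (20%, interval 3.62 to 62.4%). The share was 67.1% in bins of like expression and 63.6% over all coding genes with a peak. Both lie above the interval, which rests on 5 genes, and no test was made. DARS, IARS and QARS, which charge aspartate, isoleucine and glutamine tRNAs, had no peak, at quantiles of 0.787, 0.888 and 0.968.

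Among the other cytosolic genes the strongest peaks lay around the stop codon. CARS, the cysteine enzyme (0.921), had 1 peak, with a score of 5.61, above 97.3% of all peaks of coding genes. HARS, the histidine enzyme (0.935), scored 5.53 there and 2.27 at the transcript start. AARS, the alanine enzyme (0.978), showed the same pairing, with 4.68 near the stop codon and 2.38 at the 5' end. SARS, for serine (0.979), had a single stop codon peak of 4.48, and GARS, for glycine (0.976), one of 2.64. In TARS, the threonine enzyme and the most highly ranked synthetase (0.982), the order was reversed, with 4.32 in the 5' UTR and 2.65 around the stop codon. YARS, the tyrosine enzyme (0.953), had 3 peaks, of 2.81 in the 5' UTR part of an 845-nt first exon, 3.79 around the stop codon and 2.46 in the 3' UTR. The 4 remaining genes with a peak had a single one at the 5' end. These were FARSA and FARSB, the subunits of the phenylalanine enzyme (3.28 and 2.07, at quantiles of 0.978 and 0.805), NARS, for asparagine (2.06, quantile 0.891), and VARS, for valine (3.24, quantile 0.980). FARSB and NARS scored lowest of the 28 genes with a peak, close to the smallest score listed. WARS, the tryptophan enzyme, had no peak at a quantile of 0.969.

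Most located 5' peaks of cytosolic genes lay within 100 nt of the start codon. By the table, 11 of the 12 lay in exon 1, and that of RARS, with a score of 4.22, in exon 2. Of the 10 that could be located, which leaves out RARS and TARS, 9 were within 100 nt of the A of the start codon (90.0%, against 65.9% of 1458 such peaks in the table). They ran from 136 nt before it in VARS to 85 nt past it in FARSA, and 6 lay before it. The segments by themselves limit this distance, since they cover positions under 200 nt from the 5' end and the 5' UTR. The share of 90.0% has no interval and no share in bins of like expression beside it. The exon 1 peak of MARS, counted as coding sequence, is not among these peaks. Scores at the transcript start had a median of 2.45 in the 7 cytosolic genes, near the 2.73 of all start peaks, and those in the 5' UTR a median of 3.24 in 5 genes against 2.99. GGACT lay within 50 nt of 2 of the 10, in EPRS (15 nt downstream of the position) and AARS (22 nt upstream). Their sites are shown for comparison with the 3' sites above, having been chosen after the values were seen.
EPRS: aggtggaccagcGGACTggtggagatggc
AARS: gcccttggcgggGGACTctgagggaggag
Both motifs lie in the 5' UTR part of exon 1, and the stretch printed for EPRS runs past the start codon into the coding sequence. The stretches are at chr1:220046384-220046412 and chr16:70289445-70289473 of GRCh38, on the minus strand.

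**Figure D5:**
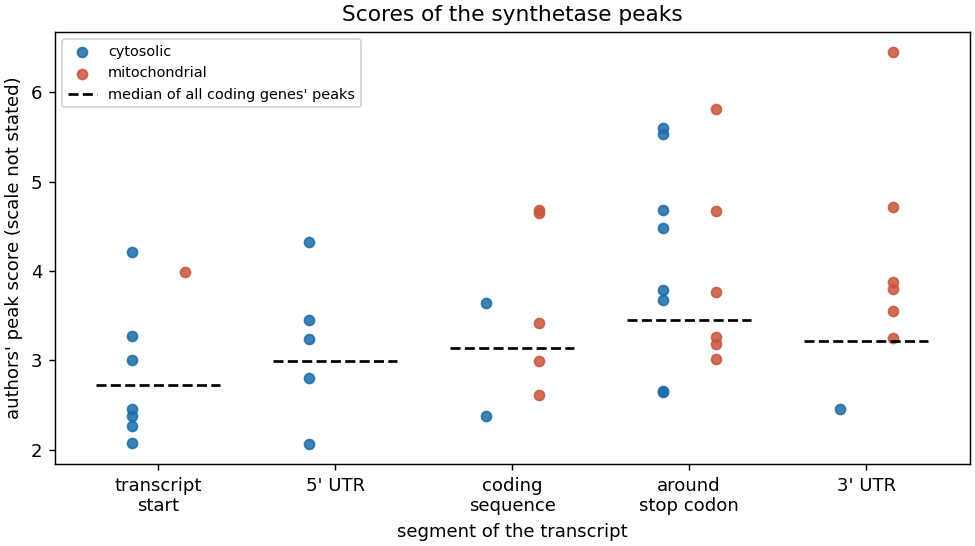
Authors' score (y axis, scale not stated) of each of the 41 synthetase peaks by segment (x axis) and compartment (colour), with the median of all peaks of coding genes in that segment as a dashed line. The 12 cytosolic peaks at the transcript start and in the 5' UTR score at most 4.32, while around the stop codon and in the 3' UTR scores reach 6.45.

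The mitochondrial genes had their peaks along the coding sequence and past it. LARS2, the leucine enzyme (quantile 0.811), had the highest score of the family, 6.45, above 99.6% of all peaks of coding genes, at position 3192 in the 3' UTR, and a further peak of 3.25 at 3915. HARS2, the histidine enzyme (0.814), followed with 5.81 around the stop codon. AARS2, for alanine (0.838), had 3 peaks in its 1986-nt last exon, of 3.77 around the stop codon and of 3.80 and 4.72 in the 3' UTR. EARS2, for glutamate (0.742), had 3.19 around the stop codon and 3.87 in the 3' UTR of a 2442-nt exon. TARS2 and WARS2, for threonine and tryptophan, had 1 stop codon peak each (4.67 and 3.02), and SARS2, for serine, 1 in the 3' UTR (3.55). PARS2, the proline enzyme, was among the least expressed (0.614) and still had 3 peaks, of 4.65 and 3.41 in the coding sequence and 3.27 around the stop codon, all in exon 2, which spans 2293 nt. FARS2, MARS2 and YARS2, for phenylalanine, methionine and tyrosine, had 1 coding sequence peak each, with scores of 4.68, 2.61 and 2.99 in exons of 633, 3028 and 845 nt. VARS2, for valine (0.888), was the exception in position, with its one peak, of 3.99, at the transcript start in an exon of 1227 nt. CARS2, IARS2, NARS2 and RARS2 had none, at quantiles of 0.950, 0.856, 0.820 and 0.667.

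The stop codon peaks of mitochondrial genes lay mostly in longer exons, though the lengths overlap. The exons that held stop codon peaks had a median of 2065 nt in the mitochondrial genes (358 to 2442 nt, 6 peaks) and 473 nt in the cytosolic genes (298 to 1286 nt, 8 peaks), against 1470 nt over the table. All 19 located peaks around the stop codon or in the 3' UTR were in the last exon, as were 99.4% of such peaks in the table. The 5 coding sequence peaks of mitochondrial genes lay in exons of 633 to 3028 nt, and the 2 of cytosolic genes in exons of 263 and 360 nt. The table gives the lengths of exons with a peak alone, so how the transcripts compare in length was not tested.

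Set side by side by amino acid, the compartments make 16 pairs, with EPRS standing for glutamate and for proline. For phenylalanine the higher value of FARSA and FARSB was taken. Both members had a peak in 11 pairs, the cytosolic one alone in 3 (CARS, NARS and RARS), the mitochondrial one alone in 1 (WARS2), and neither in 1 (IARS and IARS2). Where both did, the top score was higher in the mitochondrial gene in 8 of 11 pairs, with the 1 score of EPRS counted for both its pairs. The expression quantile was higher in the cytosolic gene in 15 of 16 pairs. The top peaks of a pair could lie in unlike segments: in EPRS, FARSA, TARS and VARS, as in VARS2, they lay at the 5' end. Over all peaks of coding genes the median score was 2.73 at the transcript start and 2.99 in the 5' UTR. It was 3.14 in the coding sequence, 3.45 around the stop codon and 3.22 in the 3' UTR. How the scores of the pairs relate to expression or to segment was not tested. The widest gap was that of leucine, 6.45 in LARS2 against 3.67 in LARS. MARS, SARS and YARS scored above their mitochondrial partners, at 3.64, 4.48 and 3.79 against 2.61, 3.55 and 2.99. Over all genes with a peak, the median top score was 4.32 in 12 mitochondrial genes (2.61 to 6.45) and 3.66 in 16 cytosolic genes (2.06 to 5.61), and the ranges overlap.

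HARS and HARS2 form a pair of their own. They lie head to head on chromosome 5, 46 nt apart at their 5' ends in the table, and encode closely related proteins. Each had a strong peak around the stop codon, of 5.53 and 5.81. The longest run that the 101-nt window around the HARS2 peak shared with the HARS transcript was 11 nt, and that of the HARS window with the HARS2 transcript 9 nt. HARS also had a peak at its transcript start, and HARS2 had none there.

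The enzymes also fall into structural classes. Class I and class II synthetases have unrelated catalytic folds, and EPRS joins one of each. A peak was listed for 12 of 18 class I genes (66.7%, bins of like expression 67.4%) and 15 of 17 class II genes (88.2%, bins of like expression 68.1%). Their intervals, 43.7 to 83.7% and 65.7 to 96.7%, overlap.

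A list of 19 other genes that make or use charged tRNAs was set beside the synthetases. Of these, 7 had a peak (36.8%, bins of like expression 62.6%, median quantile 0.870). No interval is given for this share and its gap from the bins was not tested. Of the 3 scaffold proteins of the complex, JTV1 (now AIMP2) had 2 peaks with a top score of 2.63, while SCYE1 (now AIMP1) and EEF1E1 had none. The amidotransferase that makes glutamine-charged tRNA in mitochondria had a peak in PET112L (now GATB, 2.15) and none in QRSL1 or GATC. XPOT, the exporter of tRNA from the nucleus, had 1 of 3.87 in the coding sequence, and DTD1, a tRNA proofreading enzyme, 1 of 2.71 at the transcript start. Of the elongation factors that carry charged tRNA or recycle the carrier, EEF1D (3.83) and the mitochondrial TUFM (2.69) and TSFM (4.90) had peaks. The cytosolic EEF1A1, EEF1A2, EEF1B2 and EEF1G had none at quantiles of 0.928, 0.995, 0.947 and 0.996. MTFMT, AARSD1, SEPSECS and PSTK had none either, the last 2 at the low quantiles of 0.517 and 0.490.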

How the data were processed

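The deposited file is 1 table of 25918 transcripts for all 7 libraries; no column belongs to a single library (0 columns). Per the file headers, the authors gave expression as a mean quantile, a fraction from 0 to 1, and a score for each peak, without its scale. The aligner, peak caller, annotation and genome build are not named in any source used here, so the table's own coordinates are not printed. Few reads, or transcripts too short, may have kept peaks from being listed.

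Values were counted per gene symbol with Python 3.11.15. Shares have Wilson intervals (SciPy 1.17.1). The share in bins of like expression is the mean, over genes, of the share of coding genes in the same bin of 0.05. Peaks were located on GENCODE release 29 coding transcripts (GRCh38) of the same or older symbol, chromosome and strand. The shift of the 5' end came from the length of the first or last exon that holds a peak, or was taken as 0 where spans differed by at most 10 nt. This replaced a match on exact span, planned first, which located 1 member. Segments derived in this way equalled the authors' for 98.6% of 8998 peaks. The rules for segments were read from the authors' values. Transcript start was set from the listed position, so for start peaks the match does not check the locating. Locating was tested on simulated data, made by cutting short lengths from the ends of GENCODE transcripts. That setting did not cover larger shifts, as in FARSB and NARS. Nor did it cover transcripts whose 5' end is longer in the table, as in LARS and FARSA. Motifs were searched on the transcript strand, by the distance of the A before C from the listed position. Control windows lay 300 nt up- and downstream wherever they fitted in the transcript, and could overlap another peak.

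Every member is named, with 10 sites by score. The members, lists and markers were chosen with earlier results of these data known. One gene planned for the list of other genes is not reported here.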

Additional observations from a re-analysis of the deposited data

How the results depend on the processing

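No paired analysis was possible because the table has no column for a single library, so neither IP and input numbers could be paired nor a library left out. The share of synthetases with a peak exceeded that of all coding genes by 42.2 percentage points, but that of coding genes of like expression by 9.90 points in bins of 0.05 and 9.33 points in bins of 0.1. With peaks scoring at least 3 alone, start peaks numbered 4 (8 in all), 5' UTR peaks 3 (5) and coding sequence peaks 4 (7). With the top peak of each gene alone, there were 5 at the start and 4 in the 3' UTR (7 in all). The share of cytosolic genes with a 5' peak, 75.0%, was 46.2% at scores of at least 3, 50% by the top peak of each gene and 43.8% for the transcript start alone, settings chosen after seeing the data. The share of peaks near a motif, 88.6% for RRACH within 50 nt, was 100.0% within 100 nt, 100.0% with T also allowed as the first base (DRACH) and 34.3% for GGACT. The 100.0% shares say little. Control windows held RRACH within 100 nt in 98.1% and DRACH within 50 nt in 88.5% of cases. Over all located peaks of coding transcripts the shares were 96.6% and 93.1%. RRACH within 50 nt was found for 100.0% both on an exact span (1 gene, 3 peaks) and on a span within 10 nt (10 genes, 16 peaks). Control windows there held it in 66.7% and 76.0% of cases. The other 19 values stayed within the interval, or within 1.5 times the count, of the value reported. Depth is unknown, so a gene without a listed peak is not shown to lack m6A.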
